A study of Mus musculus with 8 samples.

Results

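A set of 10 chemokine genes that hepatic stellate cells and the myofibroblasts derived from them can transcribe was followed on every array of the mouse data set: Cxcl9, Cxcl10, Cxcl11, Ccl5, Ccl2, Ccl7, Cxcl1, Cxcl5, Cxcl12 and Cx3cl1. They were chosen by symbol, as probe sets that carried exactly 1 of these symbols, and all 10 were found among the 22180 genes measured, each with 1 probe set. The cells were EMS404, an established mouse line of stellate cell-derived myofibroblasts. The siBNC2 cells (n = 4) had received an siRNA against Bnc2, which encodes the zinc finger protein basonuclin 2, and the siCTRL cells (n = 4) a non-targeting siRNA. Both were transfected by lipofection at 20 nM and harvested after 48 h, and each RNA was hybridised to 1 Affymetrix gene array. Each group has arrays numbered 1 to 4. The study describes its cell-line transcriptomes as independent replicates, with the groups of a comparison handled side by side in rounds, and the labels do not say whether an array's number marks its round. A single line grown without leukocytes or hepatocytes, and a partial knockdown by an siRNA, limit what the groups model. Expression is given throughout as the log2 value of the gene's probe set on an array, on which a step of 1 doubles the signal, and levels of different genes are not set against each other.

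Chemokines are small secreted proteins that steer leukocytes by binding G protein-coupled receptors. Cxcl9, Cxcl10 and Cxcl11 are ligands of Cxcr3 and draw activated T cells and natural killer cells. They are classical targets of interferon signalling, which reaches their promoters through STAT and IRF proteins, and Cxcl10 also responds to NF-kB. Ccl5, also called RANTES, draws T cells, whereas Ccl2 and Ccl7 bind Ccr2 and draw monocytes, and all of these are inducible. Cxcl1 and Cxcl5 are ligands of Cxcr2 and draw neutrophils. Cxcl12, the ligand of Cxcr4 and Ackr3, is made constitutively by many mesenchymal cells, and Cx3cl1 is tethered to the membrane and shed by Adam10 and Adam17. In injured liver, stellate cells are one of the sources of these signals for infiltrating leukocytes.

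Bnc2 itself read 7.07, 6.78, 6.72 and 8.18 on siBNC2 arrays 1 to 4, against 8.26, 8.41, 8.37 and 9.03 on siCTRL arrays 1 to 4. The groups did not overlap, and the difference of -1.33 ± 0.31 (SE) was not past the threshold after Benjamini-Hochberg adjustment over all genes (limma, unadjusted p = 0.0018, adjusted p = 1.00). The arrays numbered 4 stood apart from the rest in both groups, as earlier results of these data had shown: they correlated with the other arrays at r = 0.983 to 0.99 over all genes, whereas the arrays within each set correlated at 0.99 to 0.996. Bnc2 was itself higher on arrays numbered 4, by 1.01 ± 0.17 (SE, limma adjusted p = 0.014 with the siRNA in the fit), a call lost in 6 of 18 alternatives. Its siBNC2 minus siCTRL difference was -0.85 on arrays numbered 4, with 1 array on each side, and -1.49 on arrays 1 to 3. What sets the arrays numbered 4 apart is not given in the sources used here. The chemokines were therefore described in 2 ways, as arrays numbered 4 (n = 2) against arrays numbered 1 to 3 (n = 6), with the siRNA as a term of the fit, and as siBNC2 against siCTRL. The fit took all arrays as independent. Should a number mark a round, both arrays numbered 4 would come from a single round. The p-values of that contrast would then measure the spread between arrays and not between rounds.

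The stellate identity of the cells was read from 13 markers, of which 11 had a mean level at or above 5.66, the 40th percentile of all genes, below which a gene is called dim here. The mesenchymal marker Col1a1 was at a mean of 18.47 on arrays numbered 4 and 18.00 on arrays numbered 1 to 3. The quiescent stellate cell markers Lrat and Reln were dim, and Des was just above that limit, at 5.99 on arrays numbered 4 and 5.85 on arrays numbered 1 to 3. Dim levels were found for 9 of 14 macrophage and leukocyte markers, 5 of 8 endothelial, 5 of 8 hepatocyte and 3 of 5 cholangiocyte markers. Among the dim genes were Ptprc, the pan-leukocyte marker, and Adgre1, the macrophage marker. The leukocyte markers that were not dim were Cd14 (mean 9.72 over all arrays), Cd68 (8.78), Nkg7 (6.47), Clec4f (5.82) and Klrb1c (5.79). In the other lists these were Pecam1, Kdr and Lyve1 (endothelial), Apoa1, Cyp3a11 and Ass1 (hepatocyte), and Epcam and Sox9 (cholangiocyte).

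Of the 10 chemokines, 4 fell and 1 rose on arrays numbered 4 relative to arrays numbered 1 to 3 at an adjusted p below 0.05. Of all genes, 1.63% fell and 1.76% rose by the same rule, 3.39% in all. The 4 that fell were Cxcl10, Ccl5, Ccl7 and Ccl2, by 8.73-fold to 35.4-fold, and the gene that rose was Cxcl12, by 1.53-fold. The median difference was -0.83 over the 10 chemokines and 0.01 over all genes. For 6 of the 10, both arrays numbered 4 lay below the other 6 arrays, a pattern that 7.87% of all genes showed, and for 1 both lay above them, as for 10% of all genes. Fewer cells of a kind and less RNA per cell cannot be told apart in bulk RNA.

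**Figure D1:**
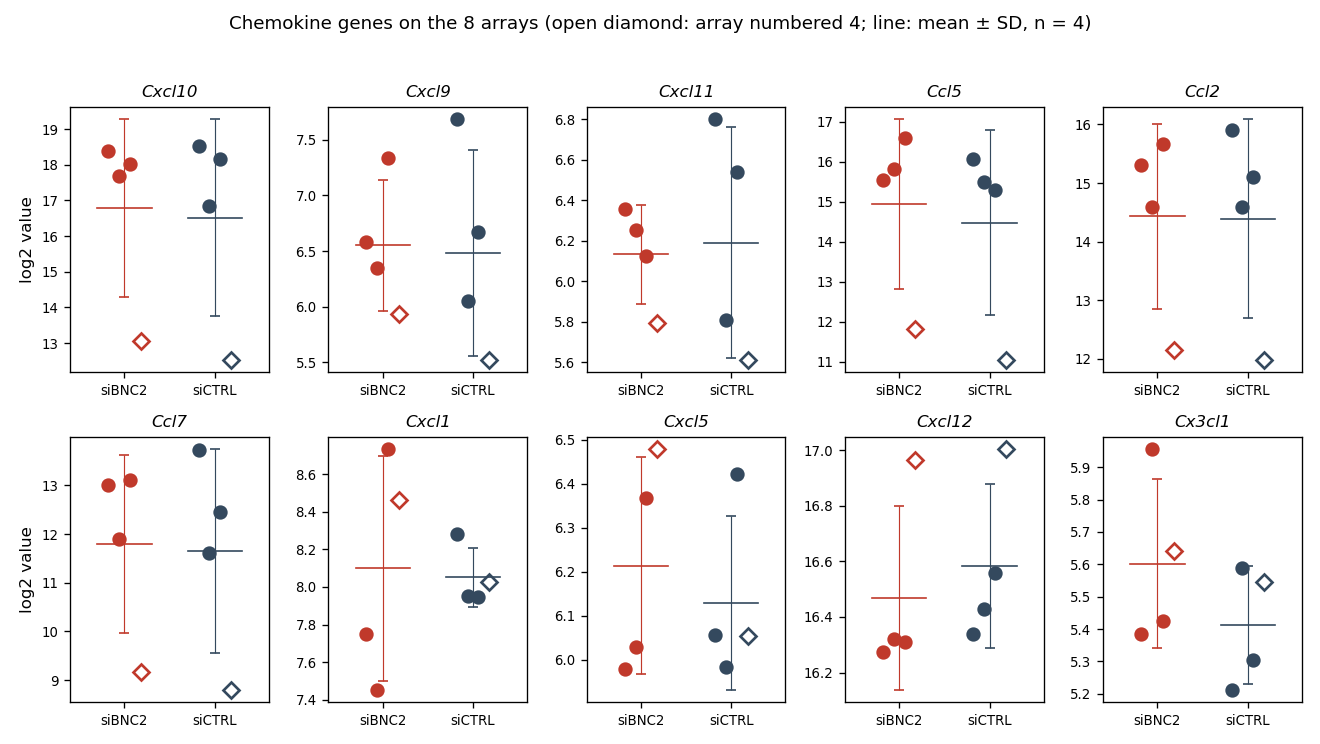
Log2 value (y axis, a scale of its own in each panel) of each chemokine gene on the 4 siBNC2 arrays and the 4 siCTRL arrays. Open diamonds are the arrays numbered 4, and lines give the mean ± SD of a group (n = 4). The diamonds lie below every filled circle for Cxcl10, Cxcl9, Cxcl11, Ccl5, Ccl2 and Ccl7, and above every filled circle for Cxcl12.

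Among the ligands of Cxcr3, Cxcl10 showed the largest difference of the 10 chemokines. Cxcl10 read 13.06 (siBNC2) and 12.52 (siCTRL) on the arrays numbered 4, against 18.37, 17.68 and 18.02 on siBNC2 arrays 1 to 3 and 18.54, 16.84 and 18.15 on siCTRL arrays 1 to 3. Both arrays numbered 4 lay well below the lowest of the other 6. Its difference was -5.15 ± 0.37 (SE, 95% interval -5.98 to -4.31, limma adjusted p = 0.00035), which ranked as number 11 of 22180 genes from the most negative. Even so, the 12.52 of its lowest array was far above the dim limit.

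Cxcl9 and Cxcl11, the other ligands of Cxcr3, did not pass the test. Cxcl9 read 5.94 (siBNC2) and 5.52 (siCTRL) on the arrays numbered 4, against 6.58, 6.35 and 7.34 on siBNC2 arrays 1 to 3 and 7.69, 6.06 and 6.67 on siCTRL arrays 1 to 3. Both arrays numbered 4 lay under the others, yet the difference of -1.05 ± 0.38 (SE, 95% interval -1.91 to -0.20) had an adjusted p of 0.19. The Cxcl9 value of the siCTRL array numbered 4 was below the dim limit, where the size of a fall may be understated. Cxcl11 read 5.79 (siBNC2) and 5.61 (siCTRL) on the arrays numbered 4, against 6.36, 6.25 and 6.12 on siBNC2 arrays 1 to 3 and 6.80, 5.81 and 6.54 on siCTRL arrays 1 to 3. Its difference was -0.61 ± 0.23 (SE, 95% interval -1.13 to -0.09, adjusted p = 0.21), with the siCTRL array numbered 4 below the dim limit. RefSeq annotates Cxcl11 of the reference mouse as a transcribed pseudogene, next to Cxcl10 with 0 protein-coding genes between them.

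The 250 bases before the transcription start were available from RefSeq (GRCm38.p6) for 5 of the 10 genes, namely Cxcl9, Cxcl10, Cxcl1, Cxcl12 and Cx3cl1. They are shown for an inducible gene that fell, its near neighbour that did not pass the test, a neutrophil chemokine and the gene that rose, so that their letters can be set beside their levels. Each is written 5′ to 3′ on the strand of its gene, with capitals at matches to the motifs searched on both strands: GAAANNGAAA, an IRF element, TTCNNNGAA, the GAS element of STAT proteins, and the NF-kB consensus.
Cxcl10, chr5:92348890-92349139, minus strand: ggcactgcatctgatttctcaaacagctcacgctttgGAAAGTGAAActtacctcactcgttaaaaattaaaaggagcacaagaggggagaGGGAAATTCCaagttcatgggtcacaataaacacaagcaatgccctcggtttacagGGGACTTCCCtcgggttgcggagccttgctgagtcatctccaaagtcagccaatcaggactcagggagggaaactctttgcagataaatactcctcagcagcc
Cxcl9, chr5:92328080-92328329, minus strand: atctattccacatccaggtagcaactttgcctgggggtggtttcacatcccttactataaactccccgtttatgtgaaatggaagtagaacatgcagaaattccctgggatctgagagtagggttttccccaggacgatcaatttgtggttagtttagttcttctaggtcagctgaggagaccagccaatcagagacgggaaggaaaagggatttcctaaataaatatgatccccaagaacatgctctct
Cxcl1, chr5:90890995-90891244, plus strand: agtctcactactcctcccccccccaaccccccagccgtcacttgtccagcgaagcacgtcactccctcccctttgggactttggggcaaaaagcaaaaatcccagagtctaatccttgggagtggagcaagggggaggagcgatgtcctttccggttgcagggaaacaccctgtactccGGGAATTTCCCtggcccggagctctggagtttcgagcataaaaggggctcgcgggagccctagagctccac
Cxcl12, chr6:117168285-117168534, plus strand: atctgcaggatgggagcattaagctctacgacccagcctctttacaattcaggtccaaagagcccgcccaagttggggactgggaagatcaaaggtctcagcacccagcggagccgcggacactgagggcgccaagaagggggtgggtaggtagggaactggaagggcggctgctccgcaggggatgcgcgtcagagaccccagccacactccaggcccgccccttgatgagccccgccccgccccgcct

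The Cxcl10 promoter held the IRF element GAAAGTGAAA at 213 to 204 bases before the start and NF-kB matches GGGAAATTCC at 159 to 150 and GGGACTTCCC at 103 to 94 bases before it. The Cxcl1 promoter held an NF-kB match at 71 to 62 bases before the start, whose reverse strand gave an overlapping match shifted by 1 base. No match to the 3 motifs was found in these windows for Cxcl9, Cxcl12 and Cx3cl1, which says only that these letters are not there. Over 32851 mouse promoters of the same length, 2.98% held the IRF element, 7.02% the GAS element and 3.9% the NF-kB consensus. A match is a run of letters and not a measured site.

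Ccl5 followed Cxcl10 in size. It read 11.83 (siBNC2) and 11.05 (siCTRL) on the arrays numbered 4, against 15.54, 15.82 and 16.58 on siBNC2 arrays 1 to 3 and 16.07, 15.48 and 15.30 on siCTRL arrays 1 to 3. The 2 sets were separated by a gap wider than the spread within either. The difference was -4.36 ± 0.28 (SE, 95% interval -4.99 to -3.73, adjusted p = 0.00031), or 20.6-fold, number 26 of all genes from the most negative.

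Both ligands of Ccr2 fell as well. Ccl2, also called MCP-1, read 12.16 (siBNC2) and 11.98 (siCTRL) on the arrays numbered 4, against 15.31, 14.59 and 15.67 on siBNC2 arrays 1 to 3 and 15.90, 14.60 and 15.11 on siCTRL arrays 1 to 3. The arrays numbered 4 lay below all others in both groups, with a mean difference of -3.13 ± 0.34 (SE, adjusted p = 0.0015), 8.73-fold lower. Ccl7, or MCP-3, read 9.17 (siBNC2) and 8.79 (siCTRL) on the arrays numbered 4, against 13.00, 11.90 and 13.12 on siBNC2 arrays 1 to 3 and 13.74, 11.62 and 12.46 on siCTRL arrays 1 to 3. Its difference was -3.66 ± 0.48 (SE, adjusted p = 0.0039), 12.6-fold lower, with the widest spread among arrays 1 to 3 of the 4 genes that fell. Ccl2 and Ccl7 lie side by side in the mouse genome, with 0 protein-coding genes between them, while 29 separate Ccl7 from Ccl5.

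The neutrophil chemokines did not pass the test. Cxcl1, also called KC, read 8.46 (siBNC2) and 8.03 (siCTRL) on the arrays numbered 4, against 7.75, 7.45 and 8.73 on siBNC2 arrays 1 to 3 and 8.28, 7.95 and 7.95 on siCTRL arrays 1 to 3. The arrays numbered 4 fell inside the range of the others, and the difference of 0.23 had a 95% interval of -0.43 to 0.88 (adjusted p = 0.80). Cxcl5 read 6.48 (siBNC2) and 6.05 (siCTRL) on the arrays numbered 4, against 5.98, 6.03 and 6.37 on siBNC2 arrays 1 to 3 and 6.06, 5.98 and 6.42 on siCTRL arrays 1 to 3. Its difference was 0.13 (95% interval -0.28 to 0.53, adjusted p = 0.82). The interval of Cxcl1 leaves out a fall of the size seen for Ccl2. Cxcl5, at a mean of 6.14 on arrays numbered 1 to 3, lay near the dim limit of 5.66. At that level so large a fall could not show, so its interval cannot exclude one. Cxcl1 and Cxcl5 lie near each other in the genome, with 4 protein-coding genes between them.

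Cxcl12, the homeostatic ligand of Cxcr4, moved the other way. It read 16.96 (siBNC2) and 17.00 (siCTRL) on the arrays numbered 4, against 16.28, 16.32 and 16.31 on siBNC2 arrays 1 to 3 and 16.34, 16.43 and 16.56 on siCTRL arrays 1 to 3. Both arrays numbered 4 were above all others, and the mean difference was 0.61 ± 0.13 (SE, 95% interval 0.33 to 0.90, adjusted p = 0.032). That call was lost when any 1 array other than siCTRL replicate 3 was left out and when all probe sets were tested (over its alternatives, adjusted p = 0.0109 to 0.596), although the difference stayed positive in each. Cx3cl1, the dim one of the 10, read 5.64 (siBNC2) and 5.54 (siCTRL) on the arrays numbered 4, against 5.39, 5.96 and 5.42 on siBNC2 arrays 1 to 3 and 5.21, 5.59 and 5.31 on siCTRL arrays 1 to 3. Its difference of 0.11 had a 95% interval of -0.29 to 0.52 (adjusted p = 0.85), and Adam10 and Adam17, the enzymes that shed it, did not pass the test either.

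**Figure D2:**
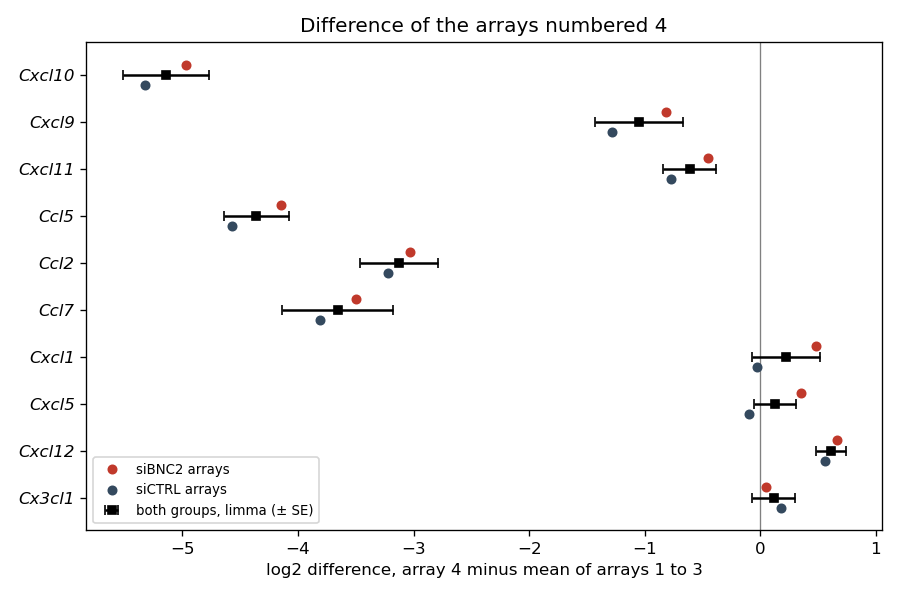
Log2 difference of arrays numbered 4 minus arrays numbered 1 to 3 for each chemokine (x axis), given within the siBNC2 arrays, within the siCTRL arrays and by limma over both (bars: ± SE). Cxcl10, Ccl5, Ccl7 and Ccl2 lie between -5.15 and -3.13, whereas Cxcl12 lies at 0.61.

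Some of these calls depended on having both arrays numbered 4. Without siCTRL replicate 4, the adjusted p was 0.063 for Ccl2 and 0.107 for Ccl7, and without siBNC2 replicate 4 it was 0.092 for Ccl7. Cxcl10 and Ccl5 kept their calls when any 1 array was left out. Within the siBNC2 arrays alone the 4 genes that fell were called and Cxcl12 was not, and within the siCTRL arrays alone none of the 5 was called, nor was any other gene. The difference within siBNC2 and within siCTRL was -4.97 and -5.32 for Cxcl10, -4.15 and -4.57 for Ccl5, -3.03 and -3.22 for Ccl2, and -3.50 and -3.81 for Ccl7, so that each gene was lower on array 4 of either group.

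Asked directly, the difference of the arrays numbered 4 did not pass the test for being unlike between siBNC2 and siCTRL. The interaction was 0.36 for Cxcl10 (95% interval -1.42 to 2.13), 0.42 for Ccl5 (-0.90 to 1.74), 0.19 for Ccl2 (-1.42 to 1.80) and 0.31 for Ccl7 (-1.98 to 2.60). All 10 chemokines had an adjusted p of 1.00, and over all genes limma called 0, with 556 at an unadjusted p below 0.05. The intervals are wide enough to hold a several-fold difference for these 4 genes.

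Among other chemokines and their receptors the calls were about as frequent as over all genes (3.39%). Of 26 further chemokine genes measured, 12 of them dim, 0 fell and 1 rose, with a median of -0.06. The gene that rose was Cxcl15, known as lungkine, which read 7.53 (siBNC2) and 6.89 (siCTRL) on the arrays numbered 4, against 5.83, 5.92 and 6.28 on siBNC2 arrays 1 to 3 and 6.61, 5.97 and 6.18 on siCTRL arrays 1 to 3. Both arrays numbered 4 were above all other arrays, and the mean difference was 1.08 ± 0.24 (SE, adjusted p = 0.039). Of 22 chemokine receptors, 14 of them dim, 1 fell and 0 rose. This was Ccrl2, an atypical receptor that binds chemerin without signalling, which read 4.92 (siBNC2) and 4.80 (siCTRL) on the arrays numbered 4, against 7.24, 6.14 and 7.16 on siBNC2 arrays 1 to 3 and 7.47, 5.74 and 7.22 on siCTRL arrays 1 to 3 (difference -1.97 ± 0.43, SE, adjusted p = 0.037).

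Upstream of the inducible chemokines, none of 11 inducing cytokines passed the test. Tgfb1 was at a mean of 11.28 on arrays numbered 4 and 11.56 on arrays numbered 1 to 3 (adjusted p = 0.60). Il6 read 7.38 (siBNC2) and 7.32 (siCTRL) on the arrays numbered 4, against 9.11, 8.39 and 9.80 on siBNC2 arrays 1 to 3 and 10.49, 8.43 and 9.23 on siCTRL arrays 1 to 3. Both arrays numbered 4 lay below all other arrays. Il6 came near the threshold, with a mean difference of -1.89 ± 0.48 (SE, adjusted p = 0.062), and it passed in 5 of 18 alternatives. Ifnb1, which encodes interferon-beta, was dim, with a mean of 4.47 on arrays numbered 4 and 4.91 on arrays numbered 1 to 3 (adjusted p = 0.28), and Ifng and Tnf were dim too. The interferon genes Ifna4, Ifnl2 and Ifnl3 were not dim, at means of 8.97, 8.18 and 7.34 over all arrays. They differed by 0.38, 0.15 and 0.30 (adjusted p = 0.47, 0.82 and 0.57).

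Of 17 cytokine and pattern receptors, 4 fell and 0 rose, with a median of -0.19. The 4 encode proteins that bind double-stranded RNA. Dhx58, also called LGP2, read 7.93 (siBNC2) and 7.61 (siCTRL) on the arrays numbered 4, against 10.75 to 13.14 on the other 6, a difference of -4.57 (adjusted p = 0.0029). Ifih1 (MDA5) differed by -3.25 (adjusted p = 0.0013), Tlr3 by -3.24 (adjusted p = 0.016) and Ddx58 (RIG-I) by -2.34 (adjusted p = 0.0015). The remaining 13 receptors, which include the interferon and tumour necrosis factor receptors, did not pass the test.

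Of 20 transcription factors and inhibitors, 4 fell and 0 rose, with a median of -0.40. Irf7, the factor that amplifies type I interferon responses, read 9.85 (siBNC2) and 8.91 (siCTRL) on the arrays numbered 4, against 12.93 to 15.20 on the other 6 (difference -5.01, adjusted p = 0.0013). Stat2 and Irf9, which carry type I interferon signals to DNA, differed by -3.40 (adjusted p = 0.0026) and -1.49 (adjusted p = 0.0074). Irf1 differed by -1.35 (adjusted p = 0.017). Other interferon regulatory factors did not pass, with Irf3 at 0.21 (adjusted p = 0.55) and Irf8 at -0.19 (adjusted p = 0.63), nor did the feedback inhibitor Socs1, at -1.34 (adjusted p = 0.068). The NF-kB feedback genes Nfkbia and Tnfaip3 were lower by 0.52 and 1.10, short of the threshold (adjusted p = 0.071 and 0.054).

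Most interferon-stimulated genes fell on arrays numbered 4. Of 17 measured, 15 fell and 0 rose, with a median of -4.08. Cmpk2, a mitochondrial nucleotide kinase, read 8.33 (siBNC2) and 7.23 (siCTRL) on the arrays numbered 4, against 12.23 to 14.21 on the other 6 (difference -5.78, adjusted p = 0.00035). Oas2, a synthetase activated by double-stranded RNA, differed by -5.77 (adjusted p = 0.0014), Usp18, which removes ISG15 from proteins and damps interferon signalling, by -5.61 (adjusted p = 0.00047), and the guanylate-binding protein gene Gbp3 by -5.52 (adjusted p = 0.0010). The 2 that did not pass were Ifit3, at -0.56 (adjusted p = 0.45), and Ifi27, at 1.44 (adjusted p = 0.076). Ifit3b, a near-identical copy of Ifit3, differed by -4.55 (adjusted p = 0.0035), so that the values of this pair disagree and are uncertain.

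**Figure D3:**
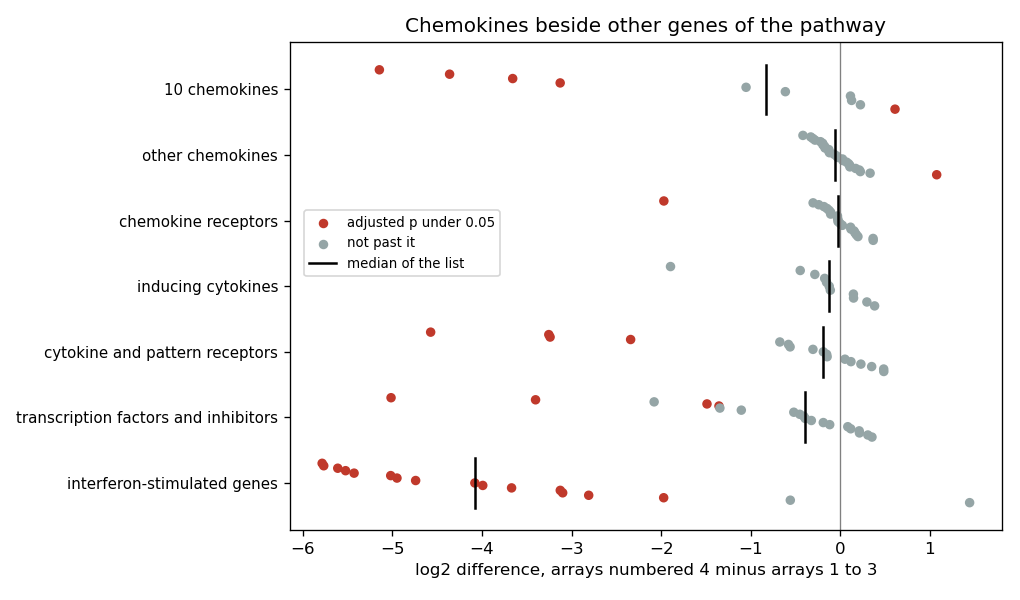
Log2 difference of arrays numbered 4 minus arrays numbered 1 to 3 (x axis) for every measured gene of 7 lists (rows), with 1 point per gene, red where the adjusted p is below 0.05, and a black bar at the list's median. The 10 chemokines split into 4 genes at -3.13 or lower and 6 genes between -1.05 and 0.61, and 15 of 17 interferon-stimulated genes are red at the left.

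Markers of cell types were counted against the same 3.39% of all genes called, beside which a lone call in a short list is no result about the list. Of 13 stellate and myofibroblast markers, 2 fell, the smooth muscle genes Tagln (-1.98, adjusted p = 0.0078) and Acta2 (-1.82, adjusted p = 0.014), and 1 rose, the growth factor receptor gene Pdgfra (1.31, adjusted p = 0.0043). Acta2 read 14.80 (siBNC2) and 14.08 (siCTRL) on the arrays numbered 4, against 15.54 to 17.10 on the other 6. Of 14 macrophage and leukocyte markers, 1 fell, the lysosomal gene Cd68 (-1.22, adjusted p = 0.015), and the list's median was -0.05. Their summed signal, which Cd14 and Cd68 carry for the greater part, was 10.28 to 10.49 on the log2 scale on arrays numbered 4 and 10.69 to 11.05 on arrays numbered 1 to 3, with Cd14 at -0.47 (adjusted p = 0.25). The endothelial and hepatocyte lists held 0 called genes, with Pecam1 at -0.08 and Cyp3a11 at 0.33, and 1 of 5 cholangiocyte markers fell, the transcription factor gene Sox9 (-0.69, adjusted p = 0.033). Ptprc and Adgre1 stayed dim on every array, and the part of any marker list in the chemokine differences was not tested.

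Most of these calls, too, rested on both arrays numbered 4. Of 19 named genes outside the 10 chemokines and Bnc2 that were called, 16 lost their call without siCTRL replicate 4 and 12 without siBNC2 replicate 4. Cmpk2 and Usp18 kept theirs without either of these arrays. Ccrl2 was also lost without siBNC2 replicate 1, siBNC2 replicate 3 or siCTRL replicate 1, and Cxcl15 and Sox9 without any 1 of the siBNC2 arrays or without siCTRL replicate 2. With all probe sets tested, 7 of the 19 lost their call. None of the 19 changed direction.

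The genes whose levels ran most alike with each chemokine were sought among 13299 genes that were not dim, by Pearson r over the 8 arrays and, as a description, over the 6 arrays numbered 1 to 3. Since the arrays numbered 4 form a set of their own for many genes, the value over 6 arrays is given as the one computed without them. The genes were still picked by r over all 8 arrays, so the value over 6 is not independent of that choice. Cxcl10 ran with Cmpk2 (r = 0.998 over 8 arrays and 0.988 over 6), Gm20559 (0.996 and 0.938) and Oas1g (0.996 and 0.934). Ccl2 ran with Ifitm3 (0.992 and 0.980), Xaf1 (0.992 and 0.964) and Iigp1 (0.990 and 0.902), and Ccl7 with Ube2l6 (0.996 and 0.978), Ifitm3 (0.996 and 0.973) and Ifit3b (0.994 and 0.955).

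Ccl5 had other partners, Edn1, the endothelin-1 gene (0.988 and 0.881), Ppa1 (0.988 and 0.716) and the ribosomal protein gene Rpl27 (0.988 and 0.773), whose likeness was weaker over 6 arrays. Cxcl9 ran with Gm8995 (0.972 and 0.946), Il6 (0.966 and 0.974) and Parp11 (0.958 and 0.928), and Cxcl11 with Smcr8 (0.973 and 0.992), Atp8b2 (0.972 and 0.958) and Nuak1 (0.970 and 0.951). For Cxcl1 they were Mthfsd (0.958 and 0.962), Gpr132 (0.927 and 0.977) and Rnf13 (0.913 and 0.957), and for Cxcl5 Gopc (0.953 and 0.932), Speg (0.946 and 0.980) and Cdk5rap1 (0.936 and 0.925). Cxcl12 ran with Maged1 (0.992 and 0.908), Tfdp2 (0.987 and 0.887) and Sort1 (0.983 and 0.845). With 8 points and so many genes searched, high values of r arise for any gene.

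Among themselves, the chemokines that fell did not form a single course once the arrays numbered 4 were set aside. Over the 6 remaining arrays, Ccl2 and Ccl7 had r = 0.979 with each other, and Cxcl9 had r = 0.951 with Ccl2 and 0.923 with Ccl7. Cxcl10 had r = 0.869 with Ccl7, 0.875 with Cxcl11 and 0.788 with Ccl2, but 0.242 with Ccl5. Ccl5 had r = 0.591 with Ccl2 and 0.713 with Cxcl1. The low array for Cxcl10 among the 6 was siCTRL replicate 2, at 16.84, where Cxcl9, Cxcl11 and Ccl7 were also at their lowest of the 6, whereas Ccl5 was at 15.48 there, above siCTRL replicate 3. These values describe 6 arrays that share a normalization and carry no test.

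Knockdown of Bnc2 did not move any of the 10 chemokines past the threshold. Of the 10, 0 were called in siBNC2 against siCTRL, where limma called 0% of all genes after adjustment, 0 had an unadjusted p below 0.05, against 3.19% of all genes (708), and for 0 did the groups fail to overlap, against 2.16%. The mean was higher in siBNC2 for 8 and lower for 2 (Cxcl11 and Cxcl12), with a median difference of 0.08 over the 10 and 0.01 over all genes. Over all 22180 genes, 11514 were higher in siBNC2 and 10666 lower. Of the 8, Cxcl9, Ccl2, Cxcl1 and Cxcl5 turned lower with both arrays numbered 4 left out. The fit also called 0 genes in each of the alternatives tried.

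For the genes with the largest spread the intervals were wide. Cxcl10 averaged 16.78 ± 2.50 in siBNC2 and 16.51 ± 2.76 in siCTRL (SD, n = 4 each), a difference of 0.27 (95% interval -2.99 to 3.53). Ccl5 averaged 14.94 ± 2.12 in siBNC2 and 14.47 ± 2.31 in siCTRL, a difference of 0.47 (-2.28 to 3.22). Ccl2 differed by 0.03 (-2.002 to 2.07) and Ccl7 by 0.15 (-2.30 to 2.59). The arrays numbered 4 carried most of that spread.

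With both arrays numbered 4 left out, the intervals of these genes narrowed, and still 0 of the 10 had an unadjusted p below 0.05. The difference was then 0.18 for Cxcl10 (95% interval -0.71 to 1.07), 0.36 for Ccl5 (-0.29 to 1.02), -0.01 for Ccl2 (-0.82 to 0.79) and 0.07 for Ccl7 (-1.08 to 1.21). On the arrays numbered 4 themselves, siBNC2 minus siCTRL was 0.54 for Cxcl10, 0.79 for Ccl5, 0.18 for Ccl2 and 0.38 for Ccl7, with 1 array on each side and no test.

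The other chemokines had narrower intervals over all 8 arrays. Cxcl12 averaged 16.47 ± 0.33 in siBNC2 and 16.58 ± 0.29 in siCTRL, a difference of -0.11 (95% interval -0.56 to 0.33). Cx3cl1 differed by 0.19 (-0.16 to 0.54), Cxcl1 by 0.05 (-0.54 to 0.63), Cxcl5 by 0.08 (-0.27 to 0.44), Cxcl9 by 0.07 (-0.91 to 1.05) and Cxcl11 by -0.06 (-0.64 to 0.53). A 4-fold change, or 2 on the log2 scale, lies outside the interval of all 6 of these genes. Cx3cl1, Cxcl11, Cxcl5 and Cxcl9 averaged 5.51, 6.16, 6.17 and 6.52 over all arrays, near or below the dim limit of 5.66. At such low levels a fall of that size may not show, so their intervals cannot exclude one. In the lists of further chemokines, receptors, cytokines, sensors, transcription factors, interferon-stimulated genes and cell type markers, 0 genes were called in this comparison.

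**Figure D4:**
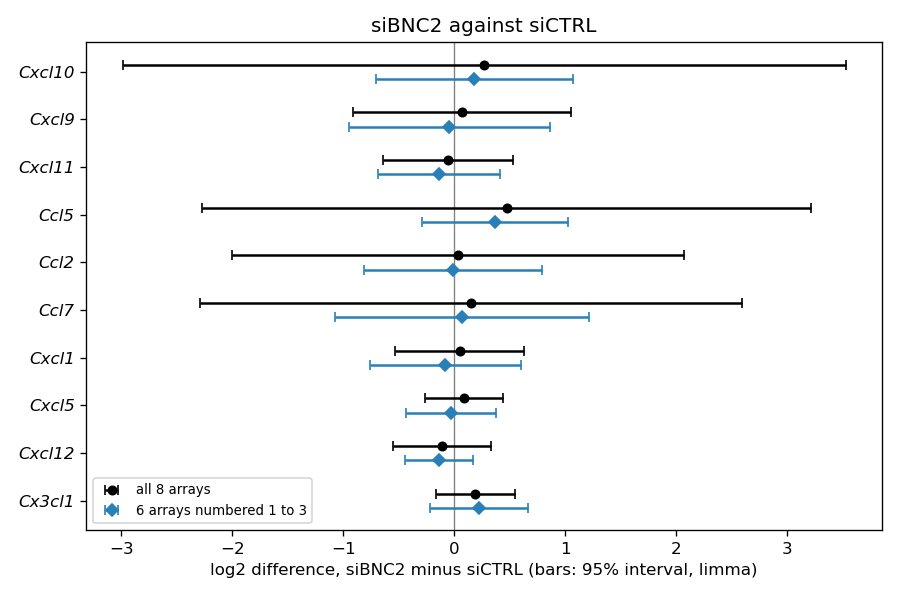
Log2 difference of siBNC2 minus siCTRL for each chemokine (x axis) with its 95% interval from limma, over all 8 arrays and with both arrays numbered 4 left out. Every interval crosses 0, and those of Cxcl10, Ccl5, Ccl7 and Ccl2 are the ones that narrow most when the 2 arrays are left out.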

How the data were processed

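RNA from EMS404 cells was hybridised to Affymetrix MoGene arrays, 1 array per sample. The authors made the deposited log2 values with the GIANT tools (v0.0.2) around Affymetrix Power Tools (version not stated), by correction for GC content, intensity scaling and RMA at the core gene level. The log base is not written in the table and is that of RMA. RMA aligns the arrays' distributions (medians 6.447 to 6.502), so that a shift of most genes together would be removed, and the scaled values reach 19.92, so that a fold is a ratio of scaled signals. The table held 41345 probe sets, 23521 with 1 symbol, 1820 with several and 16004 with none, the last 2 kinds left out. Probe sets of 1 symbol were averaged, giving 22180 genes. Array data hold no read depth, and the number of arrays limits the precision.

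limma 3.58.1 in R 4.3.3 was fitted over all genes on all 8 arrays, with the siRNA group, the array number (4 against 1 to 3) with the group, or both with their interaction. All tests had 2 sides, and p-values were adjusted across the whole set of genes by the method of Benjamini and Hochberg, with calls made below 0.05. The fit was checked on simulated data. The chemokines, the contrast of array numbers and the gene lists were chosen with earlier results of these data known, and they support nothing independently. Named from each list were up to 4 called genes with the largest difference or, with none called, the gene of the highest mean, and for each chemokine that was not dim the 3 genes of highest r. Il6, Irf3, Irf8, Socs1, Cd14, Ifnb1, Ifng, Tnf, Nfkbia, Tnfaip3, Ifit3, Ifi27, Col1a1, Des, Lrat, Reln, Ptprc, Adgre1 and Adam17 were named after their values were seen. So were Ifna4, Ifnl2, Ifnl3, Nkg7, Clec4f, Klrb1c, Kdr, Lyve1, Apoa1, Ass1 and Epcam. Bnc2 was the check of the labels. Alternatives were another normalization, filters on dim genes, the brightest probe set or all probe sets, other variance models, and leaving out arrays. Promoters came from RefSeq, and motifs were searched with Python 3.11.15.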

Additional observations from a re-analysis of the deposited data

Results flagged for a closer look

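In each siRNA group of 4 arrays, the highest or lowest array was checked for a gap to its nearest neighbour that is large against the whole range. Of 20 groups checked (10 chemokines in siBNC2 and in siCTRL), 4 had such an array. The groups share the same arrays, and the arrays numbered 4 were already known to stand apart. The count is therefore a description and cannot be set against chance. Cxcl10 was at 13.0555 on siBNC2 replicate 4, with 17.68 the nearest siBNC2 array. Ccl5 was at 11.0458 on siCTRL replicate 4, with 15.30 the nearest. Cxcl12 was at 16.964 on siBNC2 replicate 4, above the nearest array at 16.32. Cxcl5 was at 6.42205 on siCTRL replicate 3, above the nearest at 6.06. Of these 4, 3 were arrays numbered 4, and what sets those arrays apart was not tested.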

How the results depend on the processing

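For siBNC2 against siCTRL and for the interaction, 0 genes passed in every alternative that could be fitted (the interaction could not be fitted without either replicate 4). For arrays numbered 4 against 1 to 3, 752 genes passed (391 higher and 361 lower), 379 with all probe sets (128 higher), 1584 with array weights (900 higher and 684 lower), 119 within siBNC2 (20 higher and 99 lower) and 0 within siCTRL (0 higher and 0 lower), where the number of arrays is smaller. Leaving out 1 array gave 44 to 1160 (11 to 686 higher, 33 to 474 lower), lowest without siCTRL replicate 4, 71 without siBNC2 replicate 4, and highest without siCTRL replicate 3, and the cause was not tested.

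No called difference reversed. In siBNC2 against siCTRL, array weights gave 0.0498 for Cxcl11 and -0.059 for Cxcl1, and leaving out both arrays numbered 4 gave -0.0466 for Cxcl9, -0.0134 for Ccl2, -0.0831 for Cxcl1 and -0.0283 for Cxcl5. Leaving out 1 array gave -0.25 to 0.47 for Cxcl9, -1.06 to 1.51 for Cxcl10, -0.25 to 0.15 for Cxcl11, -0.77 to 0.79 for Ccl2, -0.67 to 1.51 for Ccl5, -0.81 to 1.02 for Ccl7, -0.17 to 0.26 for Cxcl1, -0.0034 to 0.18 for Cxcl5 and -0.28 to 0.0258 for Cxcl12. For arrays numbered 4 within siCTRL, Cxcl1 was at -0.033, Cxcl5 at -0.0997 and Tgfb1 at 0.0518, and within siBNC2 Pecam1 was at 0.0413, while leaving out 1 array gave -0.033 to 0.48, -0.0997 to 0.35, -0.62 to 0.0518 and -0.19 to 0.0413 for these 4 genes in that order. For the interaction, array weights gave -0.0024 for Cxcl10 and -0.0243 for Ccl7, and leaving out 1 array gave -0.16 to 0.49 for Ccl2, -0.26 to 0.80 for Ccl7 and -0.23 to 0.0601 for Cx3cl1. The cause was not tested.

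The array numbers are shared by both groups. Same-numbered arrays deviated together with correlations of -0.001 to 0.667, not all above 0.1, and 5 of 8 arrays correlated best with their own number, and no source says that a number marks a round, so that the numbers were not taken as pairs. With the replicate block, 0 genes passed, 1207 had an unadjusted p below 0.05 (708 without it), and 0 of the 10 chemokines did. The block narrowed the 95% intervals, to -0.17 to 0.70 for Cxcl10, -0.13 to 1.07 for Ccl5, -0.39 to 0.46 for Ccl2 and -0.35 to 0.65 for Ccl7.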
